A study of Mus musculus with 2 samples.

Results

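The 10 genes described here encode claudins of Bowman's capsule, of podocytes and of the tubule segments: Cldn1, Cldn2, Cldn3, Cldn4, Cldn5, Cldn7, Cldn8, Cldn10, Cldn16 and Cldn19. Their members were all probe sets that the platform annotation gives to exactly 1 of these symbols, which came to 17 of 45037 probe sets and to 10 of the 18193 genes with such a probe set. Claudins are small proteins that span the membrane several times and link neighbouring epithelial or endothelial cells in tight junctions, the seals that decide what can pass between cells. Some claudins form pores for sodium, calcium, magnesium or chloride and others close the junction, so the set of claudins in a nephron segment gives that segment its paracellular permeability. In the kidney Cldn1 is known from the parietal cells of the capsule, Cldn5 from podocytes and endothelium, Cldn2 from the proximal tubule, Cldn10 from the proximal tubule and thick ascending limb, Cldn16 and Cldn19 from the thick ascending limb, and Cldn3, Cldn4, Cldn7 and Cldn8 from the distal nephron and collecting duct.

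RNA came from glomeruli that were isolated by graded sieving from kidneys of male C57BL/6J mice. All mice were GC-A fl/fl, with floxed alleles of a receptor for natriuretic peptides, and p38 fl/fl, with floxed alleles of a stress kinase whose isoform is not named in the labels. The double knockout also carried Nephrin-Cre (Cre/+). The floxed control was Nephrin-Cre (+/+), where +/+ was read as the absence of Cre. Both were studied at 2 months of age after 3 weeks of a 6% NaCl diet and of aldosterone from an implanted minipump, at a rate per minute of 0.2 µg per kg. The nephrin promoter is used to drive Cre in podocytes, which are 1 of several cell types in the sample, and recombination was not measured here. There was 1 array for each genotype, and the number of mice behind an array is not stated. There was therefore no replicate, no error and no test for any value, and higher or lower describes these arrays only. Values are MAS5 signals, intensities on a linear scale, and a log2 difference is that of the double knockout minus the control, so that 1 is a 2-fold difference.

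The arrays were alike in RNA quality, with a 3′ over 5′ signal ratio for Actb of 1.29 in the double knockout against 1.36 in the control. Npr1, which encodes GC-A, read 102 and 167. Mapk14, the gene of p38α, read 2607 and 2628, and whether it is the floxed isoform is not stated. Whether these probe sets lie in the floxed exons is not stated, so their values are no check of the labels. Markers of the cell types, each read by 1 probe set, differed between the arrays as whole lists. Some markers have another probe set of the opposite sign. All 13 measured podocyte markers and all 14 endothelial markers read higher in the double knockout, and all 16 proximal tubule markers and all 9 collecting duct principal cell markers read lower. Distal convoluted and connecting tubule markers were below 0 in all 9, and those of the thick ascending limb in 8 of 9. Mesangial and mural markers had a median log2 difference of 0.86 and macrophage markers one of 0.91, with all 8 and all 10 above 0. Among them Pdgfrb and Itga8 of mesangial cells were at 0.46 and 0.86, and Adgre1 and Csf1r of macrophages at 0.60 and 0.59. The macrophage markers Itgam (96.0 and 36.7) and Aif1 (123 and 49.1) reached the floor, the lowest signal counted as measured, only in the double knockout. These 2 could therefore only read above 0. Of the lymphocyte markers 2 were measured, at -0.21 and 0.29, and of the erythroid markers 1, Alas2, at 0.14. The lymphocyte marker at -0.21, Cd8a, reached the floor only in the control and could only read below 0. In such bulk samples fewer cells of a type and less RNA per cell cannot be told apart, and each claudin is therefore set beside the markers of the cells it is known from. The part that the makeup of the samples had in the claudin differences was not tested.

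The 10 claudins read in both directions. Cldn1 and Cldn5, the claudins of the capsule and of the podocyte and endothelium, read higher in the double knockout, as did Cldn3, Cldn4 and Cldn7 of the collecting duct. Cldn2, Cldn10, Cldn16 and Cldn19 of the proximal tubule and thick ascending limb read lower, and so did Cldn8 of the distal nephron. The differences ran from -0.80 for Cldn10 to 1.12 for Cldn1, and by the probe set that stands for each gene only Cldn1 reached 2-fold. All 10 genes were at or above the floor of 52.7, the lowest signal counted as measured, on both arrays.

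Across the claudins, 5 log2 differences were above 0 and 5 below, against 56.1% above and 43.9% below among the 13290 measured genes. The share at least 2-fold higher was 1 of 10 claudins against a background of 3.53%, and 0 of 10 were at least 2-fold lower against 2.87%. With 10 members, 1 gene makes up the distance from the background. Centring on the array median gave 333 genes at least 2-fold higher and 530 lower among all genes, in place of 469 and 382. The median log2 difference of the claudins was 0.05, beside 0.07 for all measured genes. Centring on the array median put the claudins' median at -0.05 and that of all genes at -0.02. With the floor at the 60th percentile, where Cldn19 was not measured, these medians were 0.34 and 0.06. The median of the 8 claudins of tubule segments was -0.26, with 3 above 0 and 5 below.

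**Figure D1:**
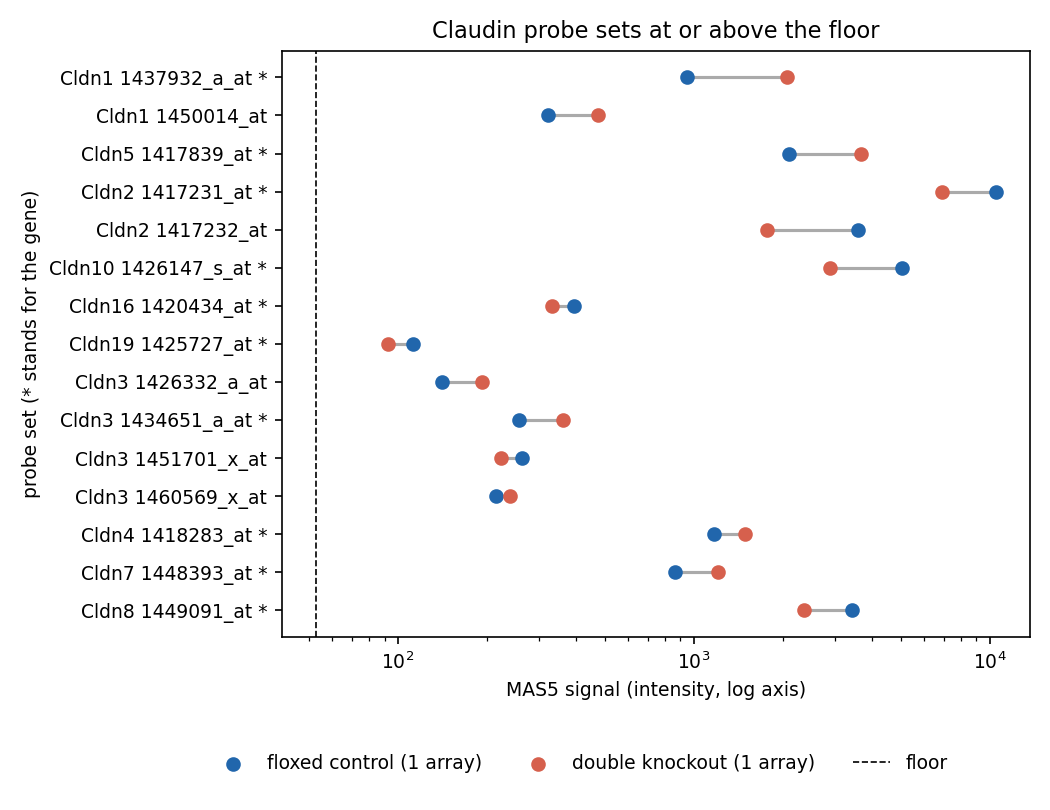
MAS5 signal of each claudin probe set at or above the floor, on a log axis, in the floxed control (blue) and the double knockout (red), 1 array each; the dashed line is the floor of 52.7 and an asterisk marks the probe set that stands for a gene. The red point lies to the right of the blue one for Cldn1, Cldn5, Cldn4 and Cldn7, to the left for Cldn2, Cldn10, Cldn16, Cldn19 and Cldn8, and on either side among the 4 probe sets of Cldn3.

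The bases upstream of the start sites are shown for the claudins with the widest differences, because genes that differ in one direction can be compared for shared elements there. Cldn4 is also shown, although its difference was smaller than those of Cldn3 and Cldn7. Its stretch holds 4 motif matches, as many as that of Cldn2, and no other stretch holds more. RefSeq (GRCm38.p6) gave start sites for 9 of the 10 claudins, 12 sites in all; Cldn8 had no entry in the table used. Each sequence is the 250 bases before the start site, read 5′ to 3′ on the gene's strand. Capitals mark matches on either strand to 6 motifs: the TATA box TATAAA, the GC box GGGCGG, the E-box CACCTG bound by Snail repressors, the AP-1 site TGANTCA, the HNF1 half-site GTTAAT and the steroid receptor half-site AGAACA. Cldn1 lies at chr16:26371840-26372089 on the minus strand, Cldn5 at chr16:18776597-18776846, Cldn2 at chrX:139800558-139800807, the start sites of Cldn10 at chr14:118787621-118787870 and chr14:118854700-118854949, all on the plus strand, and Cldn4 at chr5:134946935-134947184 on the minus strand.
Cldn1: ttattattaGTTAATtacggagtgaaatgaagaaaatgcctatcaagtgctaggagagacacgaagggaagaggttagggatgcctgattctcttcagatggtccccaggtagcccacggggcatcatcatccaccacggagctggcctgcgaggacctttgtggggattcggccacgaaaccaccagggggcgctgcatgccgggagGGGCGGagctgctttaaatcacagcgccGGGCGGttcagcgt
Cldn5: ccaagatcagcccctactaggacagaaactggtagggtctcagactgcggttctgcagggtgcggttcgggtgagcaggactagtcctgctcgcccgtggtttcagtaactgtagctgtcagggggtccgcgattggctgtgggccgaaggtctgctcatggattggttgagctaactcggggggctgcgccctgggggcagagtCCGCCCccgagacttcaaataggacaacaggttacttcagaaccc
Cldn2: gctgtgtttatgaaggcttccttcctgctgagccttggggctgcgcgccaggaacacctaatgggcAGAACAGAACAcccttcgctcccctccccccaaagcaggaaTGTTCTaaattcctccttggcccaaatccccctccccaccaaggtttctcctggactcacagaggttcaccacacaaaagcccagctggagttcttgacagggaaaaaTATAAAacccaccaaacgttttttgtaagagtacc
Cldn10 first start: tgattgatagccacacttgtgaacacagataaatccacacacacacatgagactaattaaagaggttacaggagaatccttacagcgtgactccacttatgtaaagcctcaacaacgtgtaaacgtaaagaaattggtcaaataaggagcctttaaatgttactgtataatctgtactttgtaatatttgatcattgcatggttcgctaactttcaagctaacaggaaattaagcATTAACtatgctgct
Cldn10 second start: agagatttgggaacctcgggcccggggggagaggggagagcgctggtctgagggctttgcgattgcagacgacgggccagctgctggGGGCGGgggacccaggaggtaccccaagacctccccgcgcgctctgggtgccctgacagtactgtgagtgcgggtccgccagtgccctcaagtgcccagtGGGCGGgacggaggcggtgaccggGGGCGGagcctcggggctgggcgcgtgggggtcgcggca
Cldn4: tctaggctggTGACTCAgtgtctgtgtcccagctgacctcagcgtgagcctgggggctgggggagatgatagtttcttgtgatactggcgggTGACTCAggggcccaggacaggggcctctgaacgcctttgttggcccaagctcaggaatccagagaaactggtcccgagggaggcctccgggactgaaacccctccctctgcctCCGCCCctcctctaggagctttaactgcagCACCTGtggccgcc

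The upstream stretches of claudins that differed in the same direction did not share one layout. A GC box stood before 8 of the 12 start sites, against 32.7% of 32851 start sites of all genes. Those 8 windows held 55.6% to 72.4% G or C, against a median of 52.4% for all start sites. The GC box was found for claudins of both directions. Among those higher it stood before Cldn1, Cldn5, Cldn4, Cldn3 and a start of Cldn7. Among those lower it stood before the second start of Cldn10 and both starts of Cldn19, whose windows overlap and hold the same 2 boxes. Cldn2 held a TATA box 35 bases before its start (12.4% of all start sites hold one in this window) and 3 steroid receptor half-sites, at 184, 179 and 143 bases, of which the first 2 overlap by 1 base. That half-site also occurred before Cldn16 and in 16.1% of all start sites. Cldn4, shown for its number of matches, held 2 AP-1 sites, at 240 and 158 bases, and an E-box 14 bases before the start. An AP-1 site stood before 1 of the 12 claudin start sites and before 6.75% of all start sites. The E-box was otherwise present at 2 places before 1 start of Cldn7, and in 17.2% of all start sites. HNF1 half-sites occurred before Cldn1 and the first start of Cldn10, and in 6.43% of all start sites. These matches describe the letters in the window, and no binding was measured here.

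Cldn1, the barrier claudin that marks parietal epithelial cells, had the largest difference of the claudins. Its probe set with the brightest signal read 2069.8 in the double knockout against 950.4 in the control, 2.18-fold higher. By this value Cldn1 ranked 303rd from the top of 13290 measured genes. A second probe set read 473 and 321, 1.47-fold higher or 0.56 on the log2 scale, so the 2-fold call rests on 1 of the 2 probe sets above the floor. The 2 other Cldn1 probe sets were below the floor on both arrays. They read 0.80 and 0.86 in the double knockout against 2.26 and 23.6 in the control. Raising these signals to the floor set their differences to 0. The 7 measured parietal markers had a median log2 difference of 0.86, and 5 of them lay below Cldn1, among them Akap12, a scaffold for kinases, at 0.86. The position of Cldn1 depends on the probe set: the brightest lay 0.26 above the marker median and the other at -0.31 from it. With all probe sets of each gene averaged the distance was -0.43, but that average counts the 2 Cldn1 probe sets below the floor as 0. Those above it were Cd44 (2.46) and Vcam1 (2.82), which are also induced in injured epithelium, and Prom1 lay lowest at -0.52. The summed signal of the parietal list was 16654 in the double knockout against 11120.0 in the control.

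Cldn5 seals endothelial junctions and is the main claudin of podocytes. Its single probe set read 3682 and 2093, a log2 difference of 0.81 or 1.76-fold higher. Podocyte markers had a median of 0.49, with Nphs1, which encodes nephrin, at 0.65, and 11 of 13 lay below Cldn5. The summed signal of this list was 112978 in the double knockout against 82873 in the control. Endothelial markers had a median of 0.71, with Pecam1 at 0.94 and Cdh5, the cadherin of endothelial junctions, at 0.92, and 9 of 14 lay below Cldn5. The endothelial list summed to 66106 and 41294. Cldn5 thus stood 0.11 above the endothelial median and 0.32 above the podocyte median. These arrays do not separate the share of either cell type in its signal. Recentring all genes on the median of the 42 measured glomerular markers, which subtracts 0.65 from every gene, left Cldn5 at 0.16 and Cldn1 at 0.47.

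In the proximal tubule, where most of the filtrate is reabsorbed, Cldn2 forms the paracellular pore for sodium and water. Its brighter probe set gave 6919.95 in the double knockout against 10493 in the control, 1.52-fold lower. The second read 1766 and 3585, 2.03-fold lower. Both probe sets were thus lower in the double knockout, with log2 differences of -0.60 and -1.02. They lay on either side of the median of the 16 proximal tubule markers, -0.81. Among those markers the phosphate carrier gene Slc34a1 was at -0.53. The endocytic receptor gene Lrp2 was at -0.75, with 3 measured probe sets from -0.88 to 0.19. The summed signal of the list was 148569 in the double knockout against 237554 in the control.

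Cldn10 encodes isoforms that form an anion pore in the proximal tubule and a cation pore in the thick ascending limb, from separate start sites. The 1 probe set of the gene read 2894 in the double knockout against 5053 in the control, 1.75-fold lower. Which isoforms it reads is not stated in the annotation used. Its difference of -0.80 was near the proximal tubule median of -0.81, at distances from -0.16 to 0.09 over 11 other settings, of which 3 were below 0. It lay below all 9 measured markers of the thick ascending limb, whose lowest was -0.72.

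Cldn16 and Cldn19 act together in the thick ascending limb, where they allow calcium and magnesium to pass between the cells, and both are mutated in familial hypomagnesaemia with hypercalciuria. Cldn16 read 331 in the double knockout against 393 in the control, a log2 difference of -0.25. Cldn19 read 92.4 and 112, a difference of -0.28, from the dimmest signals of the 10 claudins and close to the floor. The pair differed by 0.03 on the log2 scale. Markers of the limb had a median of -0.53, with the sodium-potassium-chloride carrier gene Slc12a1 at -0.53 and the uromodulin gene Umod at -0.15. Of the 9 markers, 6 were lower than Cldn16 and 6 lower than Cldn19. The claudins stood 0.28 and 0.25 above the marker median, but after quantile normalization they stood at -0.020 and -0.036 from it and after removal of a loess trend on signal at -0.023 and -0.031, so this direction depends on the scaling. The summed signal of the list was 42972 in the double knockout against 53930 in the control, to the nearest whole number.

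Cldn3, Cldn4 and Cldn7 went against the markers of the segment they are known from. Cldn4, which serves chloride passage in the collecting duct, read 1486 in the double knockout against 1171 in the control, 1.27-fold higher. Cldn7, found along the sides of distal tubule cells, read 1204 and 861, 1.40-fold higher. Cldn3, a sealing claudin of distal segments, read 361 and 255 in its brightest probe set, 1.41-fold higher.

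The 9 measured markers of collecting duct principal cells had a median log2 difference of -0.72 and ranged from -0.94 to -0.36, and all 9 lay below each of these claudins. The water channel gene Aqp2 was at -0.91 and Scnn1g, a subunit gene of the epithelial sodium channel, at -0.75. Elf5 was below the floor on both arrays. With Elf5 included, the list summed to 7847 in the double knockout against 12943 in the control. No measured marker was at 0. The claudins stood above the median of these markers by 1.06 for Cldn4, 1.20 for Cldn7 and 1.21 for Cldn3. The 7 measured intercalated cell markers were all below 0, at a median of -0.97, and the anion exchanger gene Slc4a1 was at -1.58. Over 11 other settings the distances from the principal cell median ran from 0.97 to 1.08 for Cldn4 and from 1.11 to 1.22 for Cldn7. For Cldn3 they ran from 0.88 to 1.23. A shift common to all genes and made after the floor cancels in such a distance, so recentring on glomerular markers could not move it. Median and 75th percentile centring were made before the floor. They can change which markers count as measured, such as Elf5 with 51.2 in the control. These 2 centrings gave the lowest distances of Cldn4 (0.97) and Cldn7 (1.11). The choice of probe set could not move Cldn4 or Cldn7 themselves, which have 1 probe set each. The direction of the claudins themselves did depend on scaling, since recentring on glomerular markers put Cldn3 at -0.16, Cldn4 at -0.31 and Cldn7 at -0.17.

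The probe sets of Cldn3 did not all read alike. A second one read 193 in the double knockout against 141 in the control, a difference of 0.46. The 2 probe sets of the kind that can cross-hybridise (suffix _x_at) read 222 and 262, a difference of -0.24, and 239 and 214, a difference of 0.16. The lowest of these still stood 0.48 above the median of the principal cell markers. Cldn4 and Cldn7 have 1 probe set each and so no such check.

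Cldn8, which assembles with Cldn4 in collecting duct junctions, read with the segment markers instead. Its signal was 2363 in the double knockout against 3421 in the control, 1.45-fold lower. This difference of -0.53 lay 0.20 above the median of the 9 distal convoluted and connecting tubule markers (-0.74). It lay 0.18 above the median of the principal cell markers. Among the distal markers the thiazide-sensitive carrier gene Slc12a3 was at -0.67, with another measured probe set at 0.12. Calb1, which encodes a calcium-binding protein, was at -1.25. Cldn4 and Cldn8 were thus apart by 0.88, Cldn7 and Cldn8 by 1.02, and Cldn3 and Cldn8 by 1.03 on the log2 scale. Without replicates there is no test of these gaps.

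**Figure D2:**
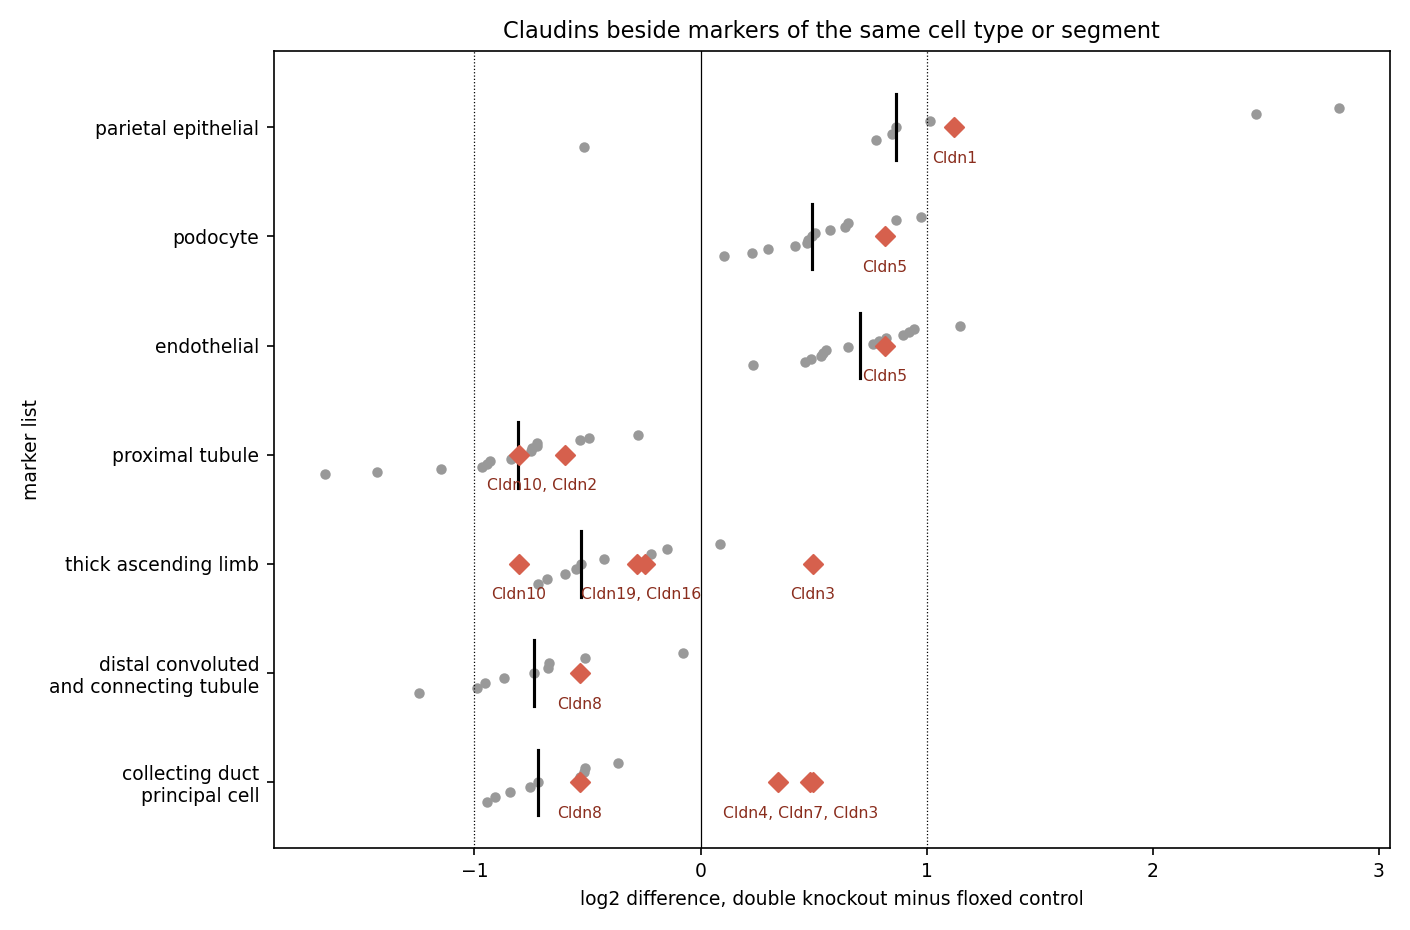
Log2 difference of each measured marker (grey points, spread vertically for sight) with the median of its list (black bar) and of the claudins known from that cell type or segment (red diamonds); dotted lines are 2-fold. The diamonds of Cldn1, Cldn5, Cldn2, Cldn16, Cldn19 and Cldn8 lie within the range of their markers, Cldn10 lies within the proximal tubule markers and below those of the thick ascending limb, and Cldn3, Cldn4 and Cldn7 lie above all markers of their lists.

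Some claudins are neighbours on the chromosome, in the order of the RefSeq annotation. Cldn3 and Cldn4 lie side by side on chromosome 5 and both read higher, 0.15 apart on the log2 scale. The genes on the outer side of this pair read lower, Abhd11 at -0.58 and Mettl27 at -0.46. Cldn1 and Cldn16 are next to each other on chromosome 16 and read in opposite directions, 1.37 apart. Beyond Cldn1 the collagen hydroxylase gene P3h2 was at 0.03, and beyond Cldn16 the kidney gene Tmem207 was at -0.19. Beside Cldn7 the glucose carrier gene Slc2a4 was at -0.57 and Elp5 at -0.12. Beside Cldn19, P3h1 was at 0.96 and Ybx1 at -0.20. Abcc4 and Dzip1 beside Cldn10 were at -0.13 and 0.34, and Morc4 beside Cldn2 was at -0.13. Cdc45 beside Cldn5 was at -0.11 and reached the floor only in the control. The remaining neighbours, among them both of Cldn8, were not measured.

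Other claudins gave few measured values. Of 15 further claudin genes 10 were named on the array and 4 of these reached the floor, and none differed 2-fold. Cldn15, which forms a cation pore in the intestine, read 853 in the double knockout against 529 in the control, a difference of 0.69. Cldn12, a broadly expressed claudin, read 2903 and 3221, a difference of -0.15. Cldn22 was at -0.45 and Cldn6 at -0.12, both with dim signals. Cldn14, a brake on the calcium pathway of the thick ascending limb, was below the floor on both arrays.

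The remaining genes of the tight junction read in both directions. Of 13 other membrane proteins of the junction, all measured, 6 were above 0 and 7 below, with a median of -0.01. Jam2, an adhesion molecule of vascular junctions, read 808 in the double knockout against 370 in the control, to the nearest whole number, and was the 1 gene of this list past 2-fold (2.19-fold higher), although its 4 measured probe sets ran from 0.55 to 1.13 on the log2 scale. Esam, an endothelial adhesion molecule, was at 0.72 and Ildr2, of the angulin family of tricellular junctions, at 0.63. The polarity gene Crb3 was at -0.73. Occludin, the gene Ocln, was at -0.36. It lies outside the naming rule and is given because it is the best known partner of claudins.

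Scaffold and polarity proteins had a median of 0.32, with 7 of 13 measured genes above 0 and none past 2-fold. Tjp1, which encodes ZO-1, the scaffold that claudins bind, read 8454 in the double knockout against 5498 in the control, a difference of 0.62. The multi-PDZ scaffold genes Mpdz and Magi3 were at 0.78 and 0.59. Another Magi3 probe set read -0.05. Prkcz, an atypical protein kinase C of the polarity complex, was at -0.89.

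Regulators of claudin transcription or stability had a median of -0.02, with 5 of 11 measured genes above 0 and 6 below. Snai1, at 0.10, reached the floor only in the double knockout and could only read above 0. Snai2, which encodes the repressor Slug, read 326 in the double knockout against 149.7 in the control, 2.18-fold higher, and its second probe set gave 1.03 on the log2 scale. Zeb2, another repressor of epithelial genes, was at 0.60, with probe sets from -0.18 to 1.03. Hnf4a, a transcription factor of the proximal tubule, was at -0.63, and Tfcp2l1, one of the collecting duct, at -0.66, within the range of the principal cell markers. Epcam, whose product binds and stabilises Cldn7, lies outside the naming rule and was at -0.02 (1617 and 1638).

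**Figure D3:**
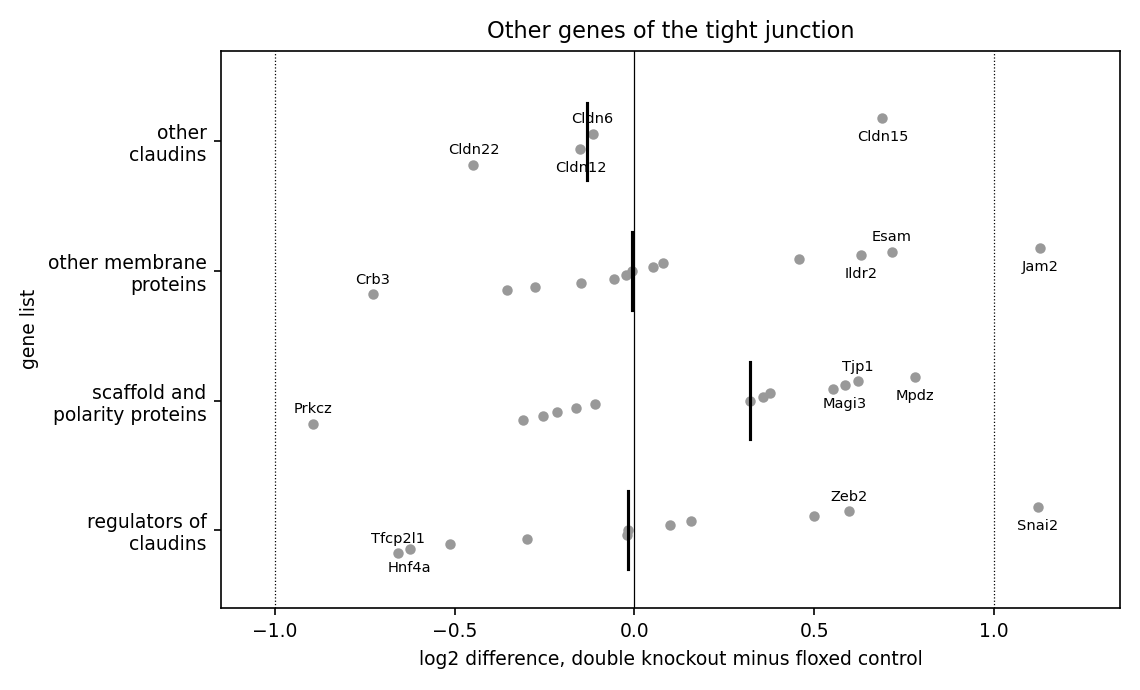
Log2 difference of each measured gene (points, spread vertically for sight) of 4 lists of tight junction genes, with the list median (black bar); dotted lines are 2-fold, and the 4 genes of largest difference in each list are named. Jam2 and Snai2 lie past the upper line, at 1.13 and 1.12, and no gene lies past the lower one.

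The claudin differences were computed again under other floors, scalings and choices of probe set. Under every one of these Cldn1 and Cldn5 stayed above 0, and Cldn2, Cldn10, Cldn16, Cldn19 and Cldn8 below 0, except that Cldn19 was not measured with the floor at the 60th percentile. Cldn3, Cldn4 and Cldn7 were above 0 in 10 of 11 settings and below 0 after recentring on glomerular markers. The other floors, and the absence of a floor, left every measured claudin at its value. The 7 claudins with 1 probe set could not change under the probe set settings. Cldn1 was below 2-fold in 3 of the 11 settings. It was at 0.42 when its probe sets were averaged, 0.47 after recentring, and 0.56 with the probe set of median difference. The average counted the 2 Cldn1 probe sets below the floor as 0. Where a gene had 2 measured probe sets, as Cldn1 and Cldn2 do, the pick of median difference took the lower difference.

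**Figure D4:**
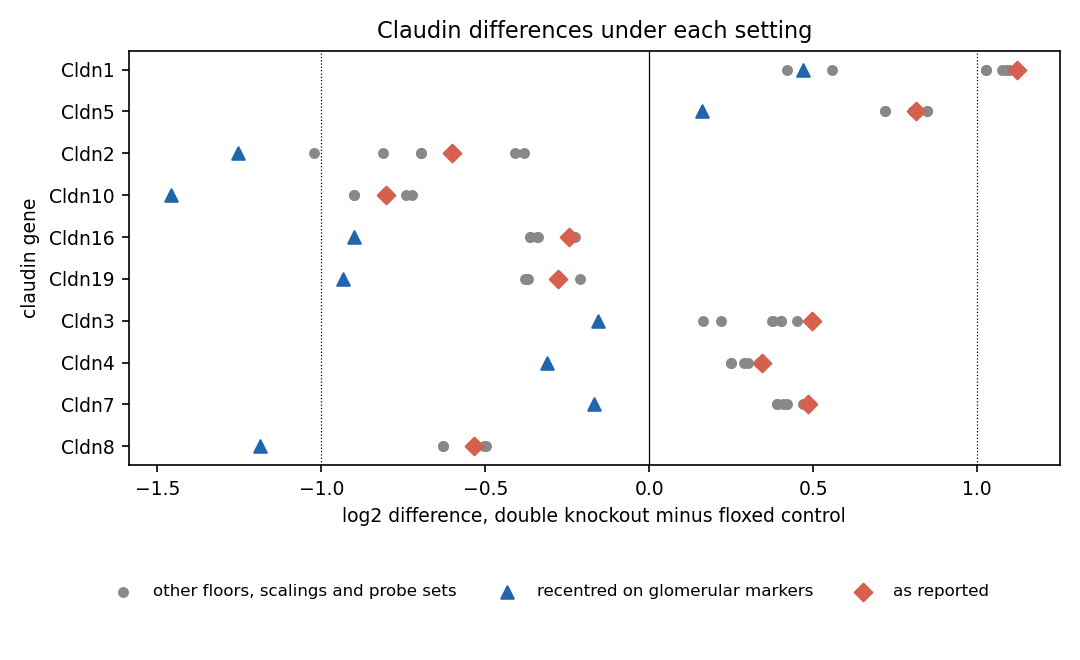
Log2 difference of each claudin as reported (red diamond), after recentring on glomerular markers (blue triangle) and under the other floors, scalings and probe set choices (grey points); dotted lines are 2-fold. Recentring moves all claudins to the left by 0.65 and takes Cldn3, Cldn4 and Cldn7 across 0, while the order of the claudins remains.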

How the data were processed

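Biotin-labelled cRNA from glomeruli was hybridised to 1-colour Affymetrix 3′ arrays, 1 array per genotype, per the labels' protocols. The deposited values are 1 intensity per probe set and array, and the submitters' processing notes name MAS5 as the tool, with no version. The trimmed mean without the lowest and highest 2% of probe sets was 500.0 on both arrays, so a difference is relative to the rest of its sample.

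Intensities were used as deposited. The 64 control probe sets were left out, and symbols came from GEO's platform annotation. A gene was represented by its brightest probe set (mean log2 over the arrays), without _x_at sets where another existed. Signals below the floor, the mean over arrays of the 40th percentile (52.7), were raised to it before log2, and a gene counted as measured if either array reached the floor. The arrays' number limits the precision, and nothing could be tested. Computation used Python 3.11.15, pandas 2.3.3 and statsmodels 0.14.6, and was tested on simulated signals. The text names every claudin probe set, up to 4 genes of largest difference per tight junction list, and the first 2 genes of each cell type list it describes where these were measured; others are marked or stand as the ends of a range. Listed genes with no such probe set are not analysed here. Members, lists and alternatives were chosen with earlier results of these data known. Alternatives were other floors, scalings, probe sets and fold rules.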

Additional observations from a re-analysis of the deposited data

How the results depend on the processing

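With 1 array per genotype no replicate could be left out. No paired analysis was possible because each genotype has 1 array. Of 109 recomputed differences of single claudins, 99 kept their direction and their side of 2-fold. Another 3 changed sign, 4 went past 2-fold and 3 came below it. The sign changes were all under recentring on glomerular markers (Cldn3 -0.16, Cldn4 -0.31, Cldn7 -0.17). Many of the 99 could not change, since other floors and no floor left every measured claudin at its value. The probe set settings could not move the 7 claudins with 1 probe set. The median over the claudins, 0.05 as reported, moved to 0.34 under a 60th percentile floor, -0.046 with median centring, -0.046 with 75th percentile centring, -0.030 after quantile normalization, -0.037 after removal of the loess trend, -0.60 after recentring on glomerular markers, -0.013 when a gene's probe sets were averaged and -0.041 with the probe set of median difference, so its sign depends on the setting. Recentring subtracts 0.65 from every gene and put the median of all measured genes at -0.59. Under the 60th percentile floor the median of all measured genes was 0.06. The median over the claudins of tubule segments stayed below 0 in all settings run. The count at least 2-fold higher, 1 as reported, was 0 after recentring, 0 when probe sets were averaged and 0 with the probe set of median difference. Among all measured genes these settings gave 65, 302 and 347. The claudin count was 2 at 1.5-fold and 0 at 3-fold. The count at least 2-fold lower, 0 as reported, was 3 after recentring (Cldn2, Cldn10 and Cldn8). Recentring put 2552 of all 13290 measured genes at least 2-fold lower, in place of 382. With the probe set of median difference 1 claudin was lower (Cldn2), beside 424 of 13337 genes. At 1.5-fold 2 claudins were lower (Cldn2 and Cldn10). All genes were not counted at 1.5-fold or 3-fold. The pick of median difference takes the lower of the 2 measured differences for Cldn1 and Cldn2. Averaging counts the 2 Cldn1 probe sets below the floor as 0. Signals near the floor limit Cldn19 and Cldn22.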
